A study of Homo sapiens with 12 samples.

Results

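The genes described here act as negative feedback on mitogen-activated protein kinase (MAPK) and G protein signalling, or are transcripts that respond to it. They were given by name, as 5 MAPK phosphatase genes (DUSP1, DUSP4, DUSP5, DUSP6 and DUSP7), the Sprouty gene SPRY2, the regulators of G protein signalling RGS2 and RGS4, the urokinase receptor gene PLAUR, and TMEM158. All 10 were measured, among 11963 genes, by 19 probe sets, and 6 of them had more than 1 probe set. The members were chosen by name with their measured log2 changes in all the comparisons below already known, so these changes are given as a description and support nothing about the group as a whole.

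The cells were RCC4, an established human line of clear cell renal carcinoma, profiled on 12 Affymetrix arrays. Cells received a non-targeting siRNA (siNT) or an siRNA against YAP (siYAP) for 2 days. They were then given DMSO, the solvent, or 1 µM erastin, which blocks cystine import, for 7 hours. Each pairing of siRNA and treatment had 3 arrays, and these 4 groups are named by both, such as siYAP with erastin. YAP, encoded by YAP1, is a transcriptional co-activator held back by the Hippo kinases. The arrays are of a single line, with a single siRNA label per target. The labels call the replicates biological without saying what was separate between them, so the spread behind the p-values may be partly technical.

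Growth factor receptors pass their signal through RAS, RAF and MEK to the MAPK ERK, which enters the nucleus and induces transcripts that include those of its own inhibitors. Dual-specificity phosphatases of the DUSP family remove the activating phosphates from ERK, JNK or p38, Sprouty proteins act between receptor and RAS, and RGS proteins speed the switching off of G protein alpha subunits. The levels of such transcripts are often read in tumour cells as a sign of how strongly the pathway runs.

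The stretches of DNA just upstream of 5 of the genes are printed here. SPRY2 had the largest change of the group after YAP silencing, and RGS2, PLAUR and DUSP7 were lower with erastin in siNT cells. RGS4 and TMEM158 were lower there too and are not printed. DUSP1, higher after silencing in DMSO, was picked because it held the most motif matches, so how rare these are supports nothing. The sequences are RefSeq's (GRCh38.p14), from a promoter table in which 8 of the 10 genes were matched, and run 5′ to 3′ on the gene's strand over the 250 bases before the transcript start, for SPRY2 the start farthest upstream. Capitals mark matches on either strand to any of 6 motifs, which are TGACGTCA (a full cyclic AMP response element, which holds TGACG on each strand), TGACG (its core), TGANTCA (an AP-1 site), GGAATG (a TEAD core), CCGGAAG (an ETS core) and the CArG box. The intervals are chr13:80341127-80341376, minus strand for SPRY2, chr1:192808789-192809038, plus strand for RGS2, chr19:43670170-43670419, minus strand for PLAUR, chr3:52056572-52056821, minus strand for DUSP7 and chr5:172771196-172771445, minus strand for DUSP1.
SPRY2: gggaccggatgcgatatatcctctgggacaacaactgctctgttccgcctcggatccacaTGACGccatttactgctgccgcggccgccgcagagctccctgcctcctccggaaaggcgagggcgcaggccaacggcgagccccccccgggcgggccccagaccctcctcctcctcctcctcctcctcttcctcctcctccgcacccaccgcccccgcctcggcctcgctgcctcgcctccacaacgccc
RGS2: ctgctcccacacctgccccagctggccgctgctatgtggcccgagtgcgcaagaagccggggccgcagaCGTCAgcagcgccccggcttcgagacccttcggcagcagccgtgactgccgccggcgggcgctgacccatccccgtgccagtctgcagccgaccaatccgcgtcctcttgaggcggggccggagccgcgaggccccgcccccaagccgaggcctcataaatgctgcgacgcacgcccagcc
PLAUR: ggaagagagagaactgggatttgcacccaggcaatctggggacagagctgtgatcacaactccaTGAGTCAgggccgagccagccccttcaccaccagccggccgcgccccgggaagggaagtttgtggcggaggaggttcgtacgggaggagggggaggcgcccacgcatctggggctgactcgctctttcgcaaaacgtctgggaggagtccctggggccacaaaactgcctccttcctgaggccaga
DUSP7: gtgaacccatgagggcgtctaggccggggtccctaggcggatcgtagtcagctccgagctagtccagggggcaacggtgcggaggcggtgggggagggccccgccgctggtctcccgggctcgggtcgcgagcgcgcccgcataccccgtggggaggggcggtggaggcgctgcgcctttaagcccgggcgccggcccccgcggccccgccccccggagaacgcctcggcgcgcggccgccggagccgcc
DUSP1: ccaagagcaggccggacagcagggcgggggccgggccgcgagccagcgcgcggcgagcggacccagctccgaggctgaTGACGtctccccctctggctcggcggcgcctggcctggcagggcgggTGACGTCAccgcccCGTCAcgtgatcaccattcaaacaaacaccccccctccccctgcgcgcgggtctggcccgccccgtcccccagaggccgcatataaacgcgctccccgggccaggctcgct

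DUSP1 held a full TGACGTCA starting 125 bases upstream, and TGACG cores starting 172 and 111 bases upstream. A full site stood in 1.65% of the 35114 RefSeq promoter windows of this length that were used, and a core in 21.2%. SPRY2 and RGS2 each held a single core, 190 and 181 bases upstream, and PLAUR a single AP-1 site 186 bases upstream, which 6.57% of windows hold. DUSP7, DUSP6 and TMEM158 held no match to the 6 motifs. Of the 4 RGS4 windows, 1 per annotated start, 2 that overlap held the same core, and the other 2 SPRY2 windows held none. No window of the 8 genes held the TEAD core, the ETS core or the CArG box, whose shares over all windows were 11.9%, 8.52% and 1.16%. A match describes letters and does not show that a factor binds there.

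The arrays correlated at 0.9955 to 0.9986 within groups, and with 3 per group their number limits the precision. YAP1 was at 8.47 to 8.65 (log2 RMA value) on the siNT arrays and at 4.18 to 6.21 on the siYAP arrays, so the silencing label held on each array. The highest siYAP value, 6.21, was that of siYAP with erastin replicate 2. The tubule and tumour markers PAX8 (10.40 to 10.64) and VIM (13.33 to 13.67) were high, and the endothelial marker CDH5 (3.13 to 3.55) and the immune marker PTPRC (3.45 to 4.01) were low, although CD74, also an immune marker, was at 9.21 to 9.87. TEK, also endothelial, was at 5.66 to 6.18, and the fibroblast and pericyte markers ran from LUM (2.15 to 2.49) to ACTA2 (7.36 to 8.08). Of 10 tubule and tumour markers 4 rose and 2 fell after silencing in each treatment, with CA12 and EPCAM each higher by 1.04 in DMSO. Over all genes 33.7% were called in DMSO and 34.9% under erastin. After silencing 1 of 5 immune markers rose (CD74, by 0.35 in DMSO and 0.41 under erastin), 1 of 6 fibroblast and pericyte markers (ACTA2, by 0.42 in both) and 0 of 5 endothelial ones in limma, where 0 had an unadjusted p under 0.05. Their part in the results was not tested. The ACTB control probes, whose 3′ minus 5′ difference grows as RNA degrades, gave 3.35 to 3.71 on the siYAP arrays with erastin. The other groups gave 2.40 to 2.97 (siNT, DMSO), 1.49 to 2.82 (siNT, erastin) and 1.49 to 3.14 (siYAP, DMSO). The GAPDH control probes did not set that group apart, with 0.127 to 0.203 against 0.0702 to 0.252 on the other arrays. The part of the ACTB difference in the results with siYAP and erastin was not tested.

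After YAP silencing in DMSO, 6 of the 10 genes were higher, 3 were lower and PLAUR did not pass the test. The rises were those of SPRY2, DUSP4, RGS4, DUSP1, DUSP5 and RGS2, from 2.38-fold to 1.19-fold, and the falls those of TMEM158, DUSP6 and DUSP7, from 1.58-fold to 1.16-fold. A gene passed at a limma adjusted p under 0.05, and over all genes 18.1% were called higher and 15.6% lower in this comparison (33.7% in all). The arrays of both groups did not overlap for the 6 genes that rose and the 3 that fell, and for 24.7% and 20.7% of all genes in these directions (45.4% in all). The median log2 change of the group was 0.30, against 0.02 over all genes. On bulk arrays a smaller share of cells that express a gene and less of its RNA per cell cannot be told apart.

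**Figure D1:**
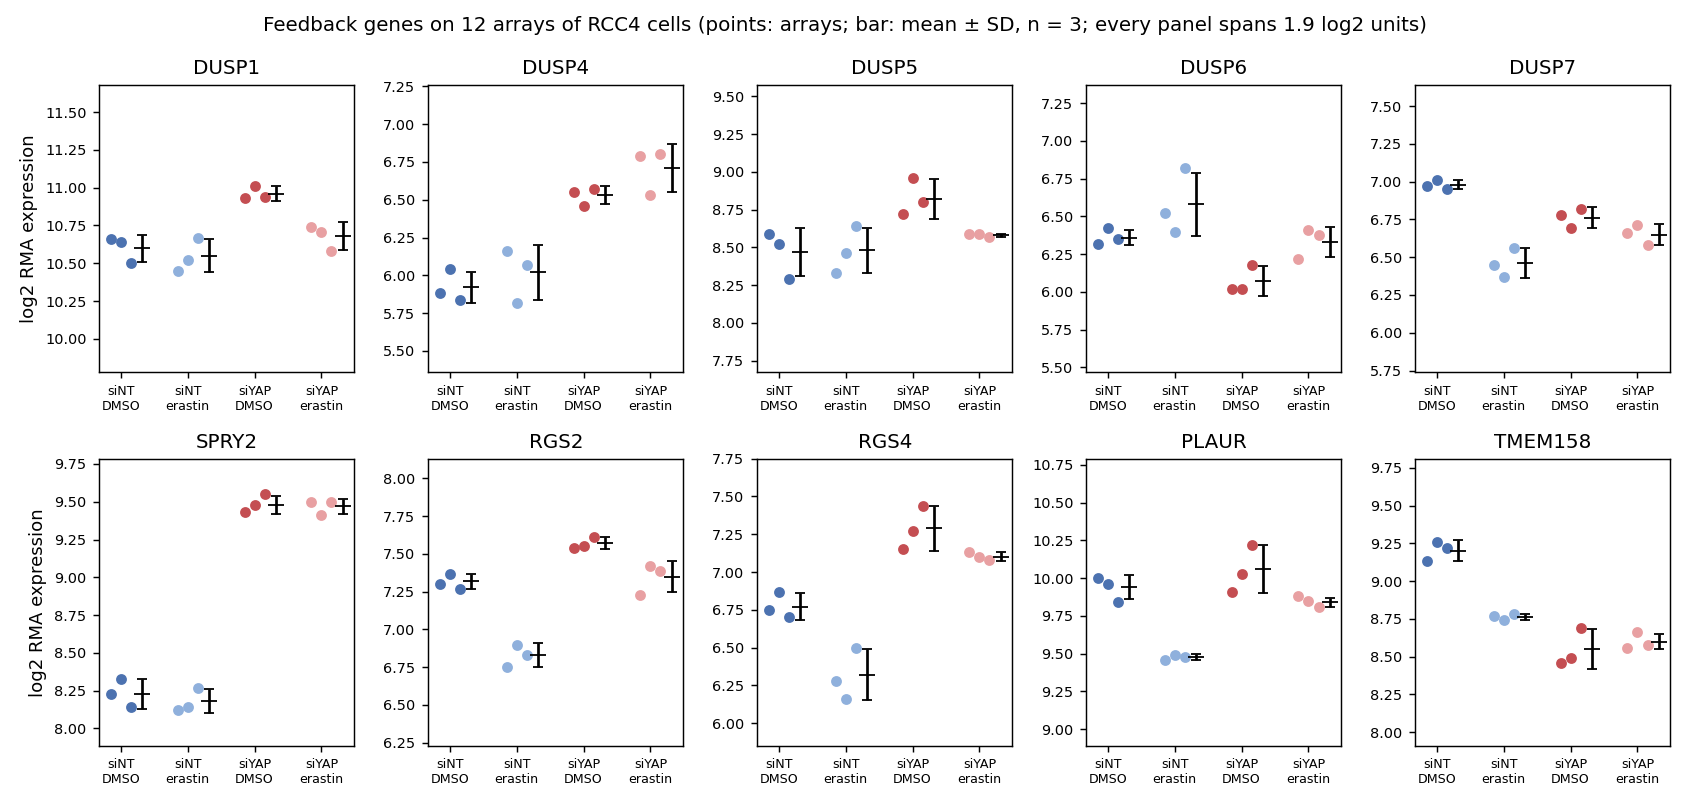
Level of each gene on the 12 arrays, as log2 RMA expression (y axis) by siRNA and treatment (x axis); points are arrays and the black bars the mean ± SD of 3. SPRY2 stands at 8.12 to 8.33 on the siNT and at 9.41 to 9.55 on the siYAP arrays, while RGS2, RGS4, PLAUR, DUSP7 and TMEM158 are lower with erastin than with DMSO in siNT cells.

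SPRY2, which restrains receptor tyrosine kinase signalling to RAS, was at 8.23, 8.33 and 8.14 in siNT with DMSO and at 9.43, 9.48 and 9.55 in siYAP with DMSO. With erastin it was at 8.12, 8.14 and 8.27 in siNT and at 9.50, 9.41 and 9.50 in siYAP cells. Every siYAP array therefore lay above every siNT array, by at least 1.10 in DMSO and 1.14 under erastin, and both erastin groups overlapped their DMSO groups. The log2 change after silencing was 1.25 (SE 0.0653) in DMSO and 1.29 (SE 0.0653) under erastin. SPRY2 was the 57th largest of 2165 rises in DMSO, and 98.6% of all genes had a smaller absolute change. No other gene of the group moved by over 1 log2 unit on all 3 siYAP arrays relative to the siNT mean, in DMSO (1.20 to 1.31) and under erastin (1.23 to 1.33).

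Among the other measured Sprouty and Spred genes, SPRY1 rose by 0.61 (adjusted p = 7.89e-04, limma) and SPRED2 by 0.32 (adjusted p = 0.00749) in DMSO, and SPRY4 changed by 0.08 (adjusted p = 0.514). Under erastin SPRY1 (0.25, adjusted p = 0.107), SPRED2 (0.19, adjusted p = 0.0914) and SPRY4 (0.05, adjusted p = 0.746) did not pass in limma. So 2 of 3 were called in DMSO and 0 of 3 under erastin, where 2 had an unadjusted p under 0.05, and the difference between both did not pass for any (SPRY1, interaction -0.36, adjusted p = 0.493). Over all genes 33.7% were called in DMSO and 34.9% under erastin. SPRY1 was dim, with group means of 5.01 to 5.62. Without replicate 1 or 3 of siNT with erastin or replicate 2 of siYAP with erastin, 1 of the 3 was called under erastin.

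DUSP1, DUSP4 and DUSP5, whose products act in the nucleus, were higher in silenced cells in DMSO. DUSP4, whose product acts on ERK and JNK, was at 5.88, 6.04 and 5.84 in siNT with DMSO and at 6.55, 6.46 and 6.57 in siYAP with DMSO. Erastin arrays gave 6.16, 5.82 and 6.07 in siNT and at 6.79, 6.53 and 6.80 in siYAP cells. The silenced arrays were the higher ones in both treatments, with no overlap, and the log2 change was 0.61 (SE 0.0968) in DMSO and 0.69 (SE 0.0968) under erastin. DUSP4 was dim, and its siNT arrays lay within the range of the endothelial marker TEK (5.66 to 6.18). The other DUSP4 probe set, which was dimmer with group means of 5.04 to 6.19, gave 0.80 and 0.93 and was called in both.

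DUSP1 encodes a stress-induced phosphatase of p38, JNK and ERK, and was at 10.66, 10.64 and 10.50 in siNT with DMSO and at 10.93, 11.01 and 10.94 in siYAP with DMSO. Under erastin it was at 10.45, 10.52 and 10.67 in siNT and at 10.74, 10.71 and 10.58 in siYAP cells. The siYAP arrays with DMSO stood above all others, and the erastin groups overlapped. The log2 change after silencing was 0.36 (SE 0.0705, adjusted p = 0.00128) in DMSO and 0.13 (SE 0.0705, adjusted p = 0.196) under erastin, and the difference between these 2 values was -0.24 (SE 0.0997, adjusted p = 0.488). The other DUSP1 probe set did not pass in DMSO (0.29, adjusted p = 0.213), where its arrays overlapped.

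DUSP5, a nuclear phosphatase specific for ERK, was also highest in siYAP with DMSO. It was at 8.59, 8.52 and 8.29 in siNT with DMSO, at 8.33, 8.46 and 8.64 in siNT with erastin, at 8.72, 8.96 and 8.80 in siYAP with DMSO and at 8.59, 8.59 and 8.57 in siYAP with erastin. Only siYAP with DMSO stood clear of the siNT arrays of its treatment, by 0.12 between the nearest arrays, and the other 3 groups overlapped. Its log2 change was 0.36 (SE 0.0942) in DMSO and 0.11 (SE 0.0942, adjusted p = 0.439) under erastin.

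DUSP6 and DUSP7, whose products act on ERK in the cytoplasm, were lower in silenced cells in DMSO. DUSP6 was at 6.32, 6.42 and 6.35 in siNT with DMSO and at 6.02, 6.02 and 6.18 in siYAP with DMSO. The erastin arrays were at 6.52, 6.40 and 6.82 in siNT and at 6.22, 6.41 and 6.38 in siYAP cells, where the groups overlapped by a single array. The log2 change was -0.29 (SE 0.0956, adjusted p = 0.0324) in DMSO and -0.25 (SE 0.0956, adjusted p = 0.0646) under erastin. The other 2 DUSP6 probe sets did not pass, at -0.32 (adjusted p = 0.163) and -0.23 (adjusted p = 0.0545) in DMSO and -0.32 (adjusted p = 0.167) and -0.21 (adjusted p = 0.0828) under erastin. The call in DMSO was lost in 5 of the 12 fits that left out an array, without any of the siNT arrays with DMSO or without replicate 1 or 2 of siYAP with DMSO, where adjusted p was 0.0576 to 0.103 in limma.

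DUSP7 was at 6.97, 7.01 and 6.95 in siNT with DMSO, at 6.45, 6.37 and 6.56 in siNT with erastin, at 6.78, 6.69 and 6.82 in siYAP with DMSO and at 6.66, 6.71 and 6.58 in siYAP with erastin. The order of the groups was siNT with DMSO highest, then siYAP with DMSO and siYAP with erastin, which overlapped, and siNT with erastin lowest. Silenced cells were therefore lower than control cells in DMSO, by 0.21 on the log2 scale (SE 0.0627, adjusted p = 0.0187), and higher under erastin, by 0.19 (SE 0.0627, adjusted p = 0.0312). DUSP7 was the only gene of the 10 called in opposite directions in the 2 treatments. The difference between both changes was 0.40 (SE 0.0886) and did not pass over all genes (adjusted p = 0.354).

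Both DUSP7 calls were narrow. The siYAP and siNT arrays with erastin were separated by 0.02, and that call was lost without replicate 1 or 2 of either erastin group (adjusted p = 0.0736 to 0.12 in limma) and with the replicate number as a block (adjusted p = 0.0542). It was also lost with only the 6 arrays compared (0.0801), the mean of the probe sets (0.0508) and a trended and robust variance model (0.06, all adjusted p from limma). Without siYAP with erastin replicate 2, the array with the highest YAP1 among silenced cells, DUSP7 was higher by 0.16 (adjusted p = 0.119). The call in DMSO was lost without siNT with DMSO replicate 2 (adjusted p = 0.0647) or siYAP with DMSO replicate 2 (adjusted p = 0.0783). The dimmer DUSP7 probe set, with group means of 4.66 to 4.96, gave -0.30 (adjusted p = 0.0546) and 0.15 (adjusted p = 0.359).

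**Figure D2:**
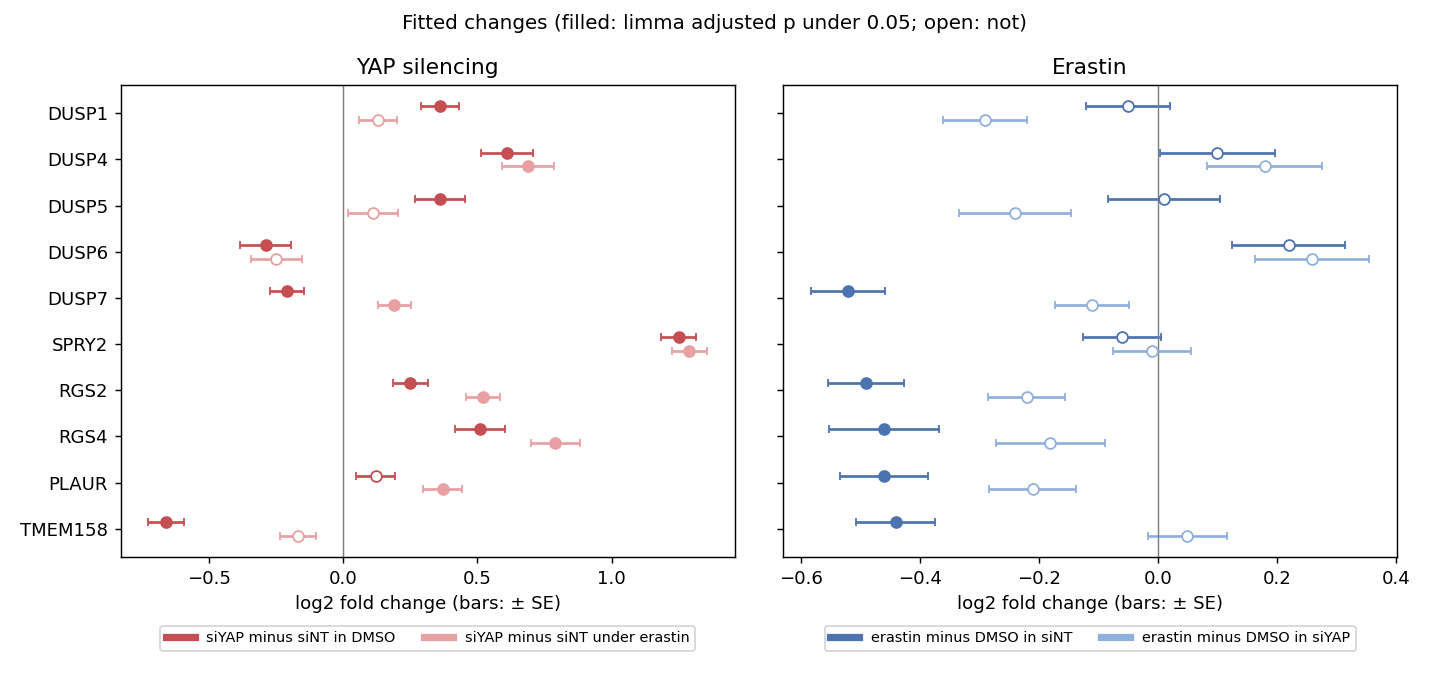
Fitted log2 fold change of each gene (x axis, bars ± SE) after YAP silencing (left) and with erastin (right); filled points passed a limma adjusted p of 0.05. SPRY2 is farthest to the right in both silencing comparisons, DUSP7 is on opposite sides of 0 (-0.21 and 0.19), and 5 genes lie between -0.52 and -0.44 with erastin in siNT cells.

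The remaining phosphatases for MAPKs give the family background. In DMSO 0 of 4 measured genes (DUSP2, DUSP8, DUSP9 and DUSP10) were called by limma, and 0 had an unadjusted p under 0.05, but 1 was called without siNT with DMSO replicate 3. Under erastin DUSP8, whose product acts on JNK and p38, was higher in silenced cells by 0.61 (adjusted p = 8.64e-05) and DUSP10 lower by 0.23 (adjusted p = 0.0176). Without replicate 3 of siNT with erastin, or 2 or 3 of siYAP with erastin, 1 of these calls was left. The list of atypical dual-specificity phosphatases, in which the related gene STYXL1 was counted, had 3 of 7 higher and 2 lower in each treatment. In DMSO DUSP14 (0.43), DUSP11 (0.39) and DUSP3 (0.37) rose and STYXL1 (-0.45) and DUSP12 (-0.31) fell. Over all genes 33.7% were called after silencing in DMSO and 34.9% under erastin, and the counts of both lists are not read as a result.

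RGS2 and RGS4 were higher in silenced cells in both treatments. RGS2, which switches off Gq, was at 7.30, 7.37 and 7.27 in siNT with DMSO and at 7.54, 7.55 and 7.61 in siYAP with DMSO. Under erastin RGS2 was at 6.75, 6.90 and 6.83 in siNT and at 7.23, 7.42 and 7.39 in siYAP cells. The siYAP arrays lay above the siNT arrays of the same treatment throughout, by 0.25 (SE 0.0643) in DMSO and 0.52 (SE 0.0643) under erastin on the log2 scale. The levels in siNT with DMSO and siYAP with erastin overlapped.

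RGS4, which acts on Gi and Gq, was at 6.75, 6.87 and 6.70 in siNT with DMSO and at 7.15, 7.27 and 7.44 in siYAP with DMSO. With erastin it was at 6.28, 6.16 and 6.50 in siNT and at 7.13, 7.10 and 7.08 in siYAP cells. The order was siYAP with DMSO, siYAP with erastin, siNT with DMSO and siNT with erastin, with no overlap between neighbours, although the first 2 were only 0.02 apart at their nearest arrays. The log2 change after silencing was 0.51 (SE 0.0923) in DMSO and 0.79 (SE 0.0923) under erastin. Of the other 2 RGS4 probe sets, which were dimmer, 1 gave 0.62 and 0.85 and was called in both treatments, and the other gave 0.26 (adjusted p = 0.329) and 0.18 (adjusted p = 0.506).

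Among 15 other measured RGS genes 7 were higher in DMSO and 6 under erastin, and 0 were lower in either. Over all genes 18.1% and 20% were called higher in these comparisons, and 15.6% and 14.8% lower. The counts are given as a description. RGS20 rose by 0.85, RGS14 by 0.72, RGS7 by 0.58 and RGS17 by 0.57 in DMSO. Under erastin the corresponding values were 0.90, 0.70, 0.74 and 0.36, and RGS12 rose by 0.47. The list medians were 0.09 and 0.19, against 0.02 and 0.01 over all genes, and RGS7 was dim at 5.21 in siNT with DMSO.

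PLAUR encodes the receptor that holds the protease urokinase at the cell surface. It was at 10.00, 9.96 and 9.84 in siNT with DMSO and at 9.91, 10.03 and 10.22 in siYAP with DMSO, which overlapped. With erastin it was at 9.46, 9.49 and 9.48 in siNT and at 9.88, 9.85 and 9.81 in siYAP cells, which did not. The log2 change after silencing was 0.12 (SE 0.0736, adjusted p = 0.256) in DMSO and 0.37 (SE 0.0736, adjusted p = 0.00166) under erastin, with an interaction of 0.25 (SE 0.104, adjusted p = 0.487). The other 2 PLAUR probe sets gave 0.20 and 0.28 in DMSO, of which only the second passed (adjusted p = 0.0224), and 0.36 and 0.45 under erastin, which both passed. With the mean of its probe sets PLAUR was called in DMSO too (0.20, adjusted p = 0.0333).

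Of 6 other measured genes of the urokinase system, 3 rose and 1 fell in DMSO, and 2 rose and 1 fell under erastin. Over all genes 33.7% and 34.9% were called in either direction, and the counts are not read as a result. PLAU, the urokinase gene itself, fell by 0.65 in DMSO and by 0.55 under erastin. The protease inhibitor gene SERPINE2 rose by 0.68 and 0.58, and PLAT, tissue plasminogen activator, by 0.42 and 0.57. LRP1, an uptake receptor, rose by 0.26 in DMSO (adjusted p = 0.0246).

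TMEM158, a membrane protein gene known to be induced by active RAS, was at 9.13, 9.26 and 9.22 in siNT with DMSO and at 8.46, 8.49 and 8.69 in siYAP with DMSO. With erastin it was at 8.77, 8.74 and 8.78 in siNT and at 8.56, 8.66 and 8.58 in siYAP cells. The siNT arrays with DMSO stood above the other 9 by at least 0.35, siNT with erastin came next, and the siYAP groups overlapped each other. The log2 change after silencing was -0.66 (SE 0.0665, adjusted p = 6.6e-06) in DMSO and -0.17 (SE 0.0665, adjusted p = 0.073) under erastin. Its interaction of 0.49 (SE 0.0940) did not pass (adjusted p = 0.272), but did with a trended and robust variance model (adjusted p = 0.0435, 1 of 8 genes called there).

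Under erastin as a whole, 6 of the 10 genes were higher in silenced cells (SPRY2, RGS4, DUSP4, RGS2, PLAUR and DUSP7) and 0 were lower, while 20% of all genes were called higher and 14.8% lower by limma (34.9% in all). At an unadjusted p under 0.05, 8 of the 10 differed in either direction, as did 42.2% of all genes. DUSP1, DUSP5, DUSP6 and TMEM158 did not pass. The median log2 change of the group was 0.28, against 0.01 over all genes. The arrays did not overlap for 6 genes in the higher direction and for TMEM158 in the lower, and for 25.3% and 19.7% of all genes (45% in all). Among the 19 probe sets, 9 were called higher and 3 lower in DMSO and 10 higher and 0 lower under erastin, where 14.4%, 12.9%, 16% and 12.9% of all probe sets were called (27.4% and 28.9% in both directions).

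Erastin in siNT cells lowered 5 of the 10 genes and raised 0. DUSP7 (1.43-fold lower), RGS2 (1.4-fold lower), PLAUR and RGS4 (each 1.37-fold lower) and TMEM158 (1.36-fold lower) fell by 0.52 to 0.44 on the log2 scale. In limma 0.267% of all genes were called lower and 0.485% higher (0.752% in all), 32 and 58 genes, and by size of change the 5 were the 3rd, 4th, 6th, 7th and 8th of the 32. Nothing beyond a description is read from this, since the group was assembled with this result known. The siNT arrays with erastin also enter the silencing comparison under erastin, so a low level on them appears in both.

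For each of the 5, no erastin array reached the lowest DMSO array, and the gaps between the nearest arrays were 0.39 for DUSP7, 0.37 for RGS2, 0.35 for PLAUR and TMEM158, and 0.20 for RGS4. Over all genes 8.51% were separated in this way in the lower direction and 5.89% in the higher (14.4% in all). Adjusted p in limma was 0.00188 for DUSP7, 0.00307 for RGS2, 0.00957 for TMEM158, 0.0146 for PLAUR and 0.0456 for RGS4. SPRY2, DUSP1, DUSP4, DUSP5 and DUSP6 overlapped between treatments and had adjusted p of 0.437 to 0.992.

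These 5 calls rested on the spread shared by all 12 arrays. With only the 6 siNT arrays, 0 of the 10 genes and 15 of all genes were called by limma, and adjusted p was 0.0505 for DUSP7, 0.0545 for RGS2, 0.0583 for PLAUR and TMEM158 and 0.247 for RGS4, at the same log2 changes. RGS4 lost its call in 9 of the 12 fits without an array, keeping it without replicate 3 of siNT with erastin or replicate 1 or 3 of siYAP with DMSO. TMEM158 lost it without siNT with DMSO replicate 2 (adjusted p = 0.0521), and PLAUR without replicate 1 or 2 of siNT with DMSO or replicate 1 of siNT with erastin. Without those 3 arrays in turn, 3, 2 and 3 of the genes were called.

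The probe sets of PLAUR, RGS4 and DUSP7 pointed the same way but differed in size. Of the 19 probe sets 4 were called lower and 0 higher by limma, against 0.0765% and 0.221% of all probe sets (0.297% in all). The brightest RGS4 probe set had an adjusted p of 0.0816 in that fit. PLAUR gave -0.46, -0.41 (adjusted p = 0.1) and -0.14 (adjusted p = 0.702) and RGS4 -0.46, -0.40 (adjusted p = 0.537) and -0.26 (adjusted p = 0.554). The dim DUSP7 probe set gave -0.17 (adjusted p = 0.73). RGS2 and TMEM158 had 1 probe set each.

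**Figure D3:**
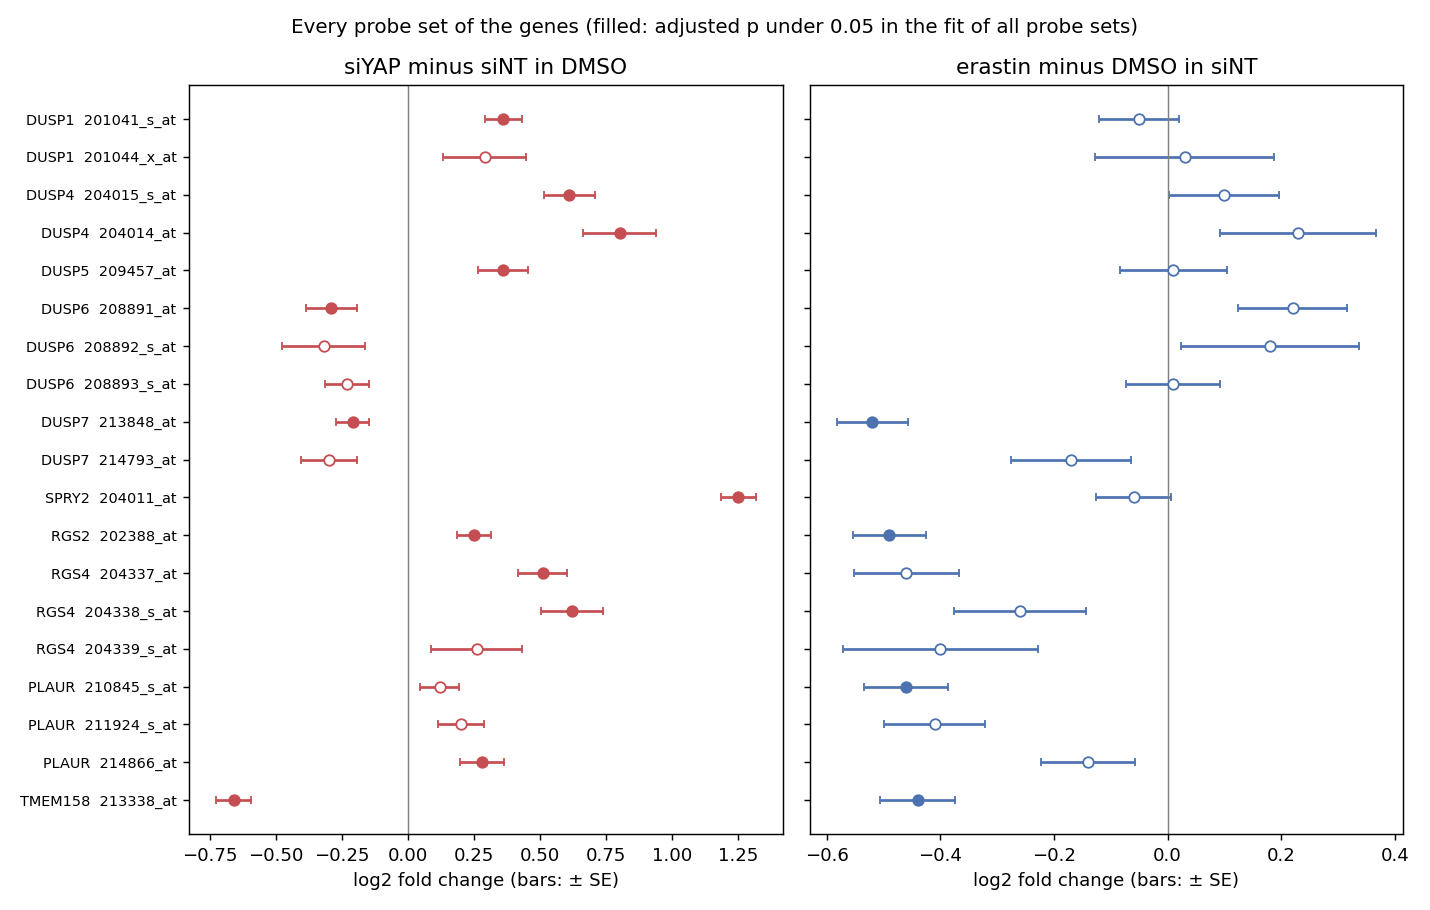
Log2 fold change (x axis, bars ± SE) of every probe set of the 10 genes (y axis, brightest first within a gene) after silencing in DMSO (left) and with erastin in siNT cells (right); filled points passed an adjusted p of 0.05 in the fit of all probe sets. Probe sets of a gene lie on the same side of 0 except for DUSP1 with erastin (-0.05 and 0.03), and those of RGS4 and PLAUR differ in size.

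In silenced cells erastin called 0 of the 10 genes in limma, where 0.326% of all genes were higher and 0.00836% lower (0.334% in all), and 0 of the 19 probe sets, where 0.162% and 0.009% were (0.171% in all). The arrays did not overlap for 5 of the genes in the lower direction and for DUSP6 in the higher, and for 10.4% and 12% of all genes (22.4% in all). Without adjustment, 5 of the 10 had p under 0.05, as had 10.7% of all genes. RGS2 changed by -0.22 (SE 0.0643, adjusted p = 0.278), PLAUR by -0.21 (SE 0.0736, adjusted p = 0.368), RGS4 by -0.18 (SE 0.0923, adjusted p = 0.512), DUSP7 by -0.11 (SE 0.0627, adjusted p = 0.563) and TMEM158 by 0.05 (SE 0.0665, adjusted p = 0.832). DUSP1 changed by -0.29 (SE 0.0705, adjusted p = 0.18), and passed with a trended and robust variance model (adjusted p = 0.0255). For the 5 genes that fell with erastin in siNT cells, the response at the brightest probe sets was smaller after silencing by 0.25 to 0.49. Another RGS4 probe set went the other way, with -0.40 in siNT and -0.47 in siYAP cells. The 5 were picked for passing in siNT cells, which alone favours a smaller response in siYAP cells, so this is a description. No interaction passed in the main fit of limma, in which 0 of all genes did. Without adjustment, 5 of the 10 genes had an interaction p under 0.05 in limma, as had 1179 (9.86%) of all genes. That the responses differ between control and silenced cells is therefore not shown for any of the 10. TMEM158 passed only under the variance model named above, and 0 of the genes did in any of the 12 fits that left out an array.

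Other transcripts that respond to ERK give a wider view of silencing. Of 15 measured, 8 rose and 2 fell in DMSO, and 7 rose and 2 fell under erastin. Over all genes 18.1% rose and 15.6% fell in DMSO, and 20% rose and 14.8% fell under erastin. The counts are given as a description. The ETS factor gene ETV1 rose by 1.69 in DMSO and 1.49 under erastin, HBEGF, an EGF receptor ligand, by 0.77 and 0.89, the ephrin receptor gene EPHA4 by 0.74 and 0.82, and EGR1, an immediate early factor, by 0.69 and 0.34. ETV1 and EPHA4 were dim in siNT cells, with means of 5.68 and 5.95 in DMSO and 5.96 for both under erastin. FOSL1, an AP-1 subunit gene, was among the 4 largest under erastin (0.39). EPHA2 (-0.43 and -0.39) and CCND1, which encodes cyclin D1 (-0.32 and -0.28), fell. The list medians were 0.21 and 0.12, against 0.02 and 0.01 over all genes.

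With erastin 2 of these 15 were called in siNT cells and 1 in siYAP cells, against 0.752% and 0.334% of all genes. With only the 6 siNT arrays, neither of the first 2 passed in limma (HBEGF, adjusted p = 0.0854, and EGR1, adjusted p = 0.05). HBEGF was at 9.27, 9.25 and 9.22 in siNT with DMSO and at 8.70, 8.74 and 8.90 with erastin, and at 9.99, 10.05 and 10.02 in siYAP with DMSO and at 9.71, 9.62 and 9.69 with erastin. The 4 groups did not overlap, and HBEGF fell by 0.46 (adjusted p = 0.00253, limma) in siNT and by 0.35 (adjusted p = 0.0287) in siYAP cells. It was the only 1 of 11963 genes called lower with erastin in silenced cells. That call was lost in 11 of 18 alternative fits (adjusted p 0.00265 to 0.281), among them every fit that left out 1 of the 6 siYAP arrays, and with the mean of its probe sets the change was -0.21. EGR1 went the other way, from 8.00, 8.02 and 8.01 to 8.54, 8.42 and 8.46 in siNT cells, a rise of 0.47 (adjusted p = 6.88e-04), and changed by 0.12 in siYAP cells (adjusted p = 0.447).

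The kinase cascade genes are set against the 33.7% (DMSO) and 34.9% (erastin) of all genes called after silencing, and their shares are not read as a result. Of 17 measured genes of the ERK cascade 5 rose and 3 fell in DMSO (5 called in all without siNT with DMSO replicate 1), and 6 rose and 2 fell under erastin. The adaptor gene GRB2 rose by 0.94 in DMSO and 1.01 under erastin, the exchange factor gene SOS2 by 0.85 and 0.70 and MAP2K2, which encodes MEK2, by 0.60 and 0.38, while SOS1 fell by 0.70 and 0.45. Of 16 genes of the JNK and p38 cascades 6 rose and 1 fell in DMSO and 7 rose and 1 fell under erastin, with rises of 0.38 and 0.47 for MAPKAPK3, 0.36 and 0.45 for the factor gene ATF2, 0.35 and 0.56 for MAP3K5, which encodes the stress kinase ASK1, and 0.34 and 0.44 for MAP2K6.

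Of 16 genes of G protein alpha subunits and phospholipase C beta, the partners and effectors of RGS proteins, 2 rose and 2 fell in DMSO. PLCB1 rose by 0.66 and PLCB4 fell by 0.67 there, and by 0.66 and 0.65 under erastin, where 3 rose and 2 fell. Over all genes 33.7% were called in DMSO and 34.9% under erastin. PLCB1 was dim, with group means of 4.64 to 5.33. GNAI3 fell by 0.37 and 0.46 and GNAZ rose by 0.21 and 0.34. With erastin, 0 genes of these 3 lists were called in siNT or siYAP cells by limma, where 3, 3 and 1 and then 2, 1 and 1 had an unadjusted p under 0.05.

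**Figure D4:**
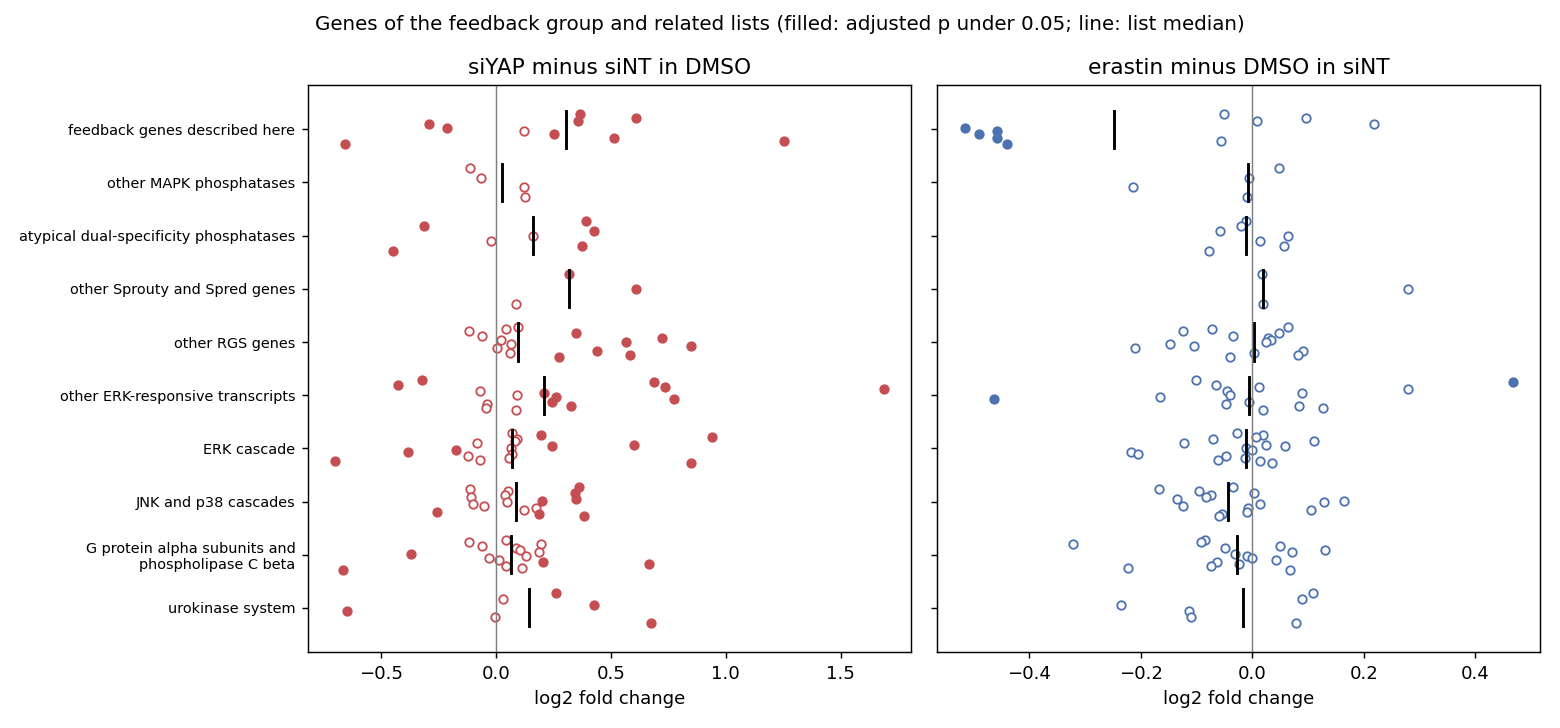
Log2 fold change (x axis) of each measured gene of the feedback group and of 9 related lists (y axis) after silencing in DMSO (left) and with erastin in siNT cells (right); filled points passed a limma adjusted p of 0.05 and black lines are list medians. Called genes lie on both sides of 0 after silencing, and with erastin HBEGF (-0.46) and EGR1 (0.47) are the called points outside the feedback group.

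The patterns most like those of single genes were found by Pearson correlation over the 12 arrays, given as a description since the arrays fall into 4 groups. DESI2 (0.998) and DRAM1 (0.997) were most like SPRY2, CLCN4 (0.978) and ZNF432 (0.975) most like DUSP4, and SSH1 (0.973) and ZNF107 (0.972) most like RGS4. RAB1A was the gene most like both DUSP1 (0.957) and DUSP5 (0.975), followed by ERLIN1 (0.941) and EPB41L3 (0.964). DNAJB1 (0.958) and C11orf24 (0.951) were most like RGS2, PRPF4 (0.974) and LTB (0.956) most like TMEM158, and CEP68 (0.962) and KDM7A (0.944) most like DUSP6. For DUSP7 they were SYNJ2 (0.943) and FHOD1 (0.929), and for PLAUR USP39 (0.93) and DNTTIP2 (0.918).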

How the data were processed

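The authors deposited log2 values (2.02 to 14.4) that Expression Console computed by RMA, according to the submitters' processing notes, which name no version. RMA equalises the arrays, so a change of total RNA would not be seen, and it compresses small changes. Of 22277 probe sets 62 controls were left out, and the platform annotation gave a single symbol for 19065, several for 1043 and none for 2107. Each gene was taken as its brightest probe set over all 12 arrays. limma 3.58.1 (R 4.3.3) fitted group means over all 12 arrays (8 residual degrees of freedom), with Benjamini-Hochberg adjustment over all 11963 genes, or over 22215 probe sets where single probe sets are given. The fit was tested on simulated data. Genes were called at adjusted p under 0.05. The genes and lists were chosen with earlier results of these data known. Named genes were the 10 members, YAP1, up to 4 called genes per list and comparison with the largest change, and the 2 genes most like each member. Other genes named, such as EPHA2, CCND1, DUSP12 and those that did not pass, were chosen after their values were seen. Genes of a list without a single-symbol probe set were not analysed here. Other settings tried were the 6 arrays of a comparison alone, a block for the replicate number, median centring, removal of the dimmest 30% of genes, the mean of the probe sets, a trended and robust variance model, the submitters' zero transformation, other probe sets, and leaving out each array. No batch was tested, since no label gives one. The sample titles carry running numbers, lower for every siNT array than for every siYAP array, without saying what they stand for. An effect that follows these numbers cannot be told apart from silencing.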

Additional observations from a re-analysis of the deposited data

How the results depend on the processing

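After silencing, counts of rising genes of the group were 6 to 7 in DMSO and 5 to 6 under erastin over the alternative fits at gene level and those without an array. The submitters' rule of a change over 1 on every array left only SPRY2 in both. Falling genes in DMSO were 1 to 3 when each array was left out in turn. Under erastin, falling genes numbered 0 to 1 in those fits, 1 with median centring (DUSP6), 1 with the mean of the probe sets (DUSP6), 1 with the trended and robust variance model (TMEM158) and 2 without the dimmest 30% of genes (both).

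With erastin in siNT cells, all genes called were 15 with only the 6 arrays compared, 38 with the replicate block, 165 without the dimmest 30% and 161 with the trended and robust model, against 90, and 34 to 76 when leaving out an array. Of the group, 0 were called with only the 6 arrays, 3 with the replicate block (RGS4, adjusted p = 0.102, and PLAUR, adjusted p = 0.0529, were lost) and 2 to 5 when leaving out an array. In siYAP cells all genes called were 26 with only the 6 arrays and 74 with the trended and robust model (1 of the group, DUSP1), and 20 to 45 when leaving out an array. That model called 8 interactions, 1 of them in the group. The cause of these shifts was not tested. Same-numbered arrays of different groups did not deviate together (correlations -0.417 to 0.19, each array most like its own number in 11 of 36 cases), so the numbers were not taken as pairs.

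No called change of a gene turned its sign. Changes that did not pass and turned were those of DUSP1 in its other probe set (-0.09 under erastin after silencing, 0.03 with erastin in siNT), DUSP5 with erastin in siNT (-0.08 and -0.07 without replicate 3 of siNT with DMSO or erastin), and DUSP7 with erastin in siYAP (0.08 with the mean of the probe sets, 0.28 in its other probe set). In siYAP with erastin SPRY2 (0.02 and 0.02 without an array) and PLAUR (0.02 in another probe set) turned. The interaction turned for RGS4 in another probe set (-0.07), and when leaving out an array ranged from -0.01 to 0.09 for SPRY2, -0.02 to 0.17 for DUSP4 and -0.04 to 0.16 for DUSP6.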
